A study of Mus musculus with 6 samples.

Results

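The comparison set mouse embryonic stem cells living on coelacanth POU5F1 (LcPOU5F1) against cells living on its paralog, coelacanth POU5F3 (LcPOU5F3). It takes 4 of the 6 samples of the series, the LcPOU5F1-rescued clones 4 and 5 and the LcPOU5F3-rescued clones 1 and 2, chosen by their labels alone, and it covers every gene that could be named and measured. The other two samples, clones 1 and 2 rescued by mouse OCT4 (mOct4), are given as a reference and are not part of the test. All 6 lines descend from ZHBTc4, mouse embryonic stem cells whose own copies of Oct4 (Pou5f1) are both disrupted and whose Oct4 transgene can be shut off by tetracycline. Per the labels, cells received a pCAG-IP plasmid carrying the rescuing factor and grew with LIF, serum, tetracycline at 2 µg/mL and, from day 2, puromycin at 1 µg/mL. Colonies were picked at day 9 and expanded. The controls therefore share the tetracycline and the selection, the factor is driven by the broadly active CAG promoter, and each line is 1 picked colony that had survived without the resident factor. Each line was hybridised to 1 Agilent array, and the labels give no age or passage number.

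OCT4, the product of Pou5f1, is a POU-domain transcription factor that binds an octamer sequence, often next to SOX2, and keeps embryonic stem cells and the inner cell mass pluripotent. When OCT4 is withdrawn from ZHBTc4 cells, they turn into trophoblast-like cells of the kind that build the trophectoderm, the outer epithelium of the blastocyst and the source of the placenta. Early jawed vertebrates carried a pair of POUV paralogs, POU5F1 and POU5F3, and the coelacanth has kept both, while mice kept only Pou5f1. A rescue assay in these cells asks how far each paralog can stand in for the mouse protein.

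Between 43.4% and 53.3% of the 55681 probes were well above background on each of the 4 compared arrays, no spot was saturated, and the 4 arrays lay on the same slide. Levels are given as log2 processed signal relative to the 75th percentile of the same array, so a level of 0 is that percentile and a step of 1 is a doubling. LcPOU5F3 clone 2 stood apart from clone 1 over chromosome 6, where its genes had a median difference of 0.51 on the log2 scale and 80.0% of 545 genes were higher in clone 2. The median of each of the other 19 chromosomes lay between -0.11 and 0.11. Counts for the lists that the results turn on are therefore also given without that clone. DNA copy number was not measured.

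The clones did not hold a mouse Pou5f1 signal that could be compared. The Pou5f1 probe was not well above background on any of the 4 arrays, at levels of -4.62 and -3.88 in the LcPOU5F1 clones and -2.99 and -5.71 in the LcPOU5F3 clones. Both mOct4 arrays measured it, at -1.58 and -1.32. Whether this mouse probe can read the coelacanth transgenes was not tested, so how much LcPOU5F1 and LcPOU5F3 each clone made is not known here.

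The markers of the labelled cell type were present in all 4 clones, but markers of trophoblast were present in the LcPOU5F3 clones too. The mean log2 level of 8 embryonic stem cell markers was 5.87 and 6.03 in the LcPOU5F1 clones, 4.53 and 3.68 in the LcPOU5F3 clones, and 5.99 and 6.07 in the mOct4 clones. The mean level of the 7 tested trophoblast markers was 0.37 and -0.40 in the LcPOU5F1 clones, 4.21 and 4.16 in the LcPOU5F3 clones, and 0.83 and 0.81 in the mOct4 clones. The means of neither set overlapped between the coelacanth groups. Taken singly, all 8 stem cell markers had non-overlapping clones with LcPOU5F1 higher, as 38.4% of all genes did. Of the 7 trophoblast markers, 6 had non-overlapping clones with LcPOU5F1 lower, as 28.4% of all genes did, and Eomes overlapped. In bulk RNA, a smaller share of cells expressing a gene and less of its RNA per cell cannot be told apart, here and in every result that follows. Markers of fibroblasts were measured for 4 of 8 genes, with a mean level between -2.11 and -2.07 in the LcPOU5F1 clones and between -0.87 and -0.34 in the LcPOU5F3 clones. Thy1 and Dcn carried that gap, while the collagen genes Col1a2 (-2.14 and -1.83 against -1.70 and -2.64) and Col3a1 (-1.86 and -1.87 against -1.29 and -2.80) overlapped between the groups. The part of such cells in the results was not tested.

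Stem cell genes were higher with LcPOU5F1, while trophectoderm, epithelial, contractile and early response genes were higher with LcPOU5F3. Limma's moderated test with Benjamini-Hochberg adjustment called 1062 of 12926 genes (8.22%) at an adjusted p under 0.05. The calls were uneven: 289 genes (2.24%) were higher with LcPOU5F1 and 773 (5.98%) were lower, and 1043 of them differed by at least 2-fold. Centring each array on its median in place of its 75th percentile moved the median of all differences from 0.12 to -0.25 and gave 283 higher and 1393 lower calls, so the higher calls made up 16.9% of all calls against 27.2%. The fit had 2 residual degrees of freedom (4.25 after moderation), and 4254 genes had an unadjusted p under 0.05. Adding the mOct4 arrays to the estimate of the spread raised the calls to 1548 higher (12.0%) and 1747 lower (13.5%), and 1060 of the 1062 genes were called in both fits in the same direction. The mOct4 clones varied least, with a median SD of 0.10 against 0.14 for LcPOU5F1 and 0.21 for LcPOU5F3. In the fit of all 6 arrays, the error of the comparison is thus partly set by clones outside it. Results of that fit are no independent check of the calls.

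**Figure D1:**
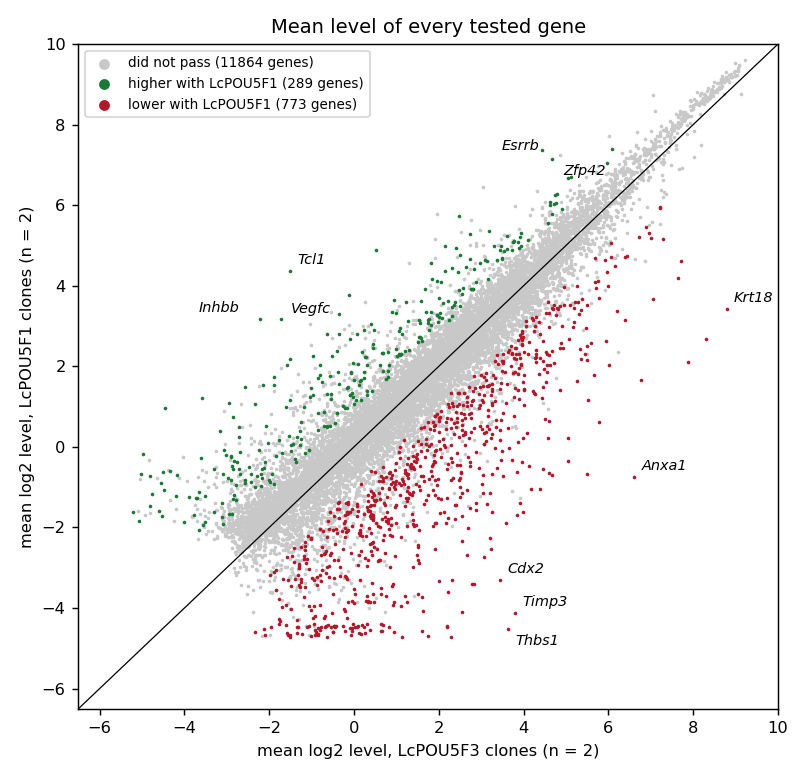
Mean log2 level of each of the 12926 tested genes in the LcPOU5F3 clones (x axis) and the LcPOU5F1 clones (y axis), both relative to the array's 75th percentile, n = 2 clones each. Green points are the 289 genes called higher with LcPOU5F1, red points the 773 called lower, grey points did not pass limma's test, and the line marks equal levels; the band of red points near the bottom holds genes at background in the LcPOU5F1 clones.

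The calls depended on the pairs of clones. Leaving out either LcPOU5F1 clone left 0 calls in limma, with 2253 genes at an unadjusted p under 0.05 without clone 4 and 2124 without clone 5. Leaving out LcPOU5F3 clone 2 gave 640 calls (153 higher, 487 lower), and leaving out LcPOU5F3 clone 1 gave 2885 (1396 higher, 1489 lower). All 1062 genes kept their direction in each of these 4 fits. Of the 117 called genes that the naming rule picked, 87 were called without LcPOU5F3 clone 2. Among the 30 others, Zmat4, Cish, Cyp26a1, Rdh10, Hoxc6, Wnt7a, Bcl2l1, B2m, Ndrg1, Spint1, Esrp2, Tnfrsf10b and Rif1 then had adjusted p-values from 0.052 (Spint1) to 0.099 (Esrp2), and the remaining ones are given beside their lists.

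The 10 strongest rises with LcPOU5F1 were led, by fitted difference, by Tcl1, Myo1f and Inhbb. Tcl1, a co-activator of AKT kinase that is abundant in naive stem cells, was at 4.04 and 4.67 in the LcPOU5F1 clones against -0.39 and -2.62 in the LcPOU5F3 clones, a 58.1-fold difference (log2 difference 5.86 ± 0.81, SE, n = 2 clones per group; limma adjusted p = 0.035). The LcPOU5F3 clones were 2.23 apart (log2) for this gene, and the mOct4 clones, at 4.93 and 4.28, lay among the LcPOU5F1 values. Inhbb, which encodes a subunit of activin B, was at 3.27 and 3.07 against -2.02 and -2.43 (5.40 ± 0.22, adjusted p = 0.011), with 1 of the 2 LcPOU5F3 arrays above background. Vegfc, a growth factor of lymphatic vessels, was at 3.06 and 3.30 against -1.82 and -1.60 (4.89 ± 0.19, adjusted p = 0.011). Slc7a3, a transporter of cationic amino acids, was 20.6-fold higher, and Ntn1, the guidance cue netrin-1, 28.1-fold higher, with 1 LcPOU5F3 array above background. Myo1f, which encodes a class I myosin, was on no LcPOU5F3 array above background and at least 15.0-fold higher with LcPOU5F1. Efcab10, Zmat4 and Cd79b were likewise measured only with LcPOU5F1 among the 4 arrays, at least 6.76-fold, 4.81-fold and 4.65-fold higher, and Pla2g1b, a secreted phospholipase, was 16.6-fold higher. In all 10 genes the LcPOU5F1 clones lay above both LcPOU5F3 clones, which the naming rule required.

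The strongest falls were led, by fitted difference, by Thbs1, Timp3 and Anxa1. Thbs1, the matrix protein thrombospondin-1, and Timp3, an inhibitor of matrix metalloproteases, were at 2.87 and 4.39 and at 3.44 and 4.14 in the LcPOU5F3 clones. Neither was above background on any LcPOU5F1 array, so they were at least 64.9-fold and at least 72.4-fold lower there (limma adjusted p = 0.017 and 0.011). Such bounds set the LcPOU5F3 mean against the lowest signal that the LcPOU5F1 arrays could measure. Anxa1, a membrane-binding annexin, was at 0.12 and -1.63 with LcPOU5F1 against 6.30 and 6.92 with LcPOU5F3, a 165-fold difference. Dsc2, a desmosomal cadherin, was at least 36.9-fold lower with LcPOU5F1. Dppa1 was at least 25.5-fold lower, Sema3c, a secreted semaphorin, at least 24.0-fold, Hoxc9 at least 23.9-fold and Flt1, a receptor of VEGF that trophoblast also makes, at least 17.5-fold. Cdx2, which is described with its family, also belongs to the strongest falls. Of those named here, only Anxa1 and Cdx2 were measured above background on any LcPOU5F1 array.

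Transcription factors of naive pluripotency were higher with LcPOU5F1. Of 22 tested, 6 rose and 0 fell, against 2.24% of all genes called higher, and their median log2 difference was 1.71 beside 0.12 for all genes. Without LcPOU5F3 clone 2 the count was again 6, and with the mOct4 arrays in the fit it was 15. The genes called without LcPOU5F3 clone 2 were not all the same ones. The clones of 17 members did not overlap with LcPOU5F1 higher, where 38.4% of all genes showed that pattern, and 28.4% of all genes did not overlap with LcPOU5F1 lower, a pattern that 0 members showed. Sox2, the HMG-box partner of OCT4, was at 4.22 and 4.48 against 2.66 and 2.25, a 3.73-fold difference (1.90 ± 0.23, adjusted p = 0.030). Zfp42 (REX1), a zinc finger gene used as a marker of the naive state, was at 6.98 and 7.31 against 5.09 and 4.27 (2.46 ± 0.35, adjusted p = 0.036). In the mOct4 clones Sox2 was at 4.19 and 3.98 and Zfp42 at 6.79 and 6.96, closer to the LcPOU5F1 clones than to the LcPOU5F3 clones for both genes.

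The nuclear receptors Nr5a2 and Nr0b1, which act in the same network, were 4.99-fold and 5.88-fold higher with LcPOU5F1. Both calls were lost without LcPOU5F3 clone 2 (limma adjusted p = 0.057 and 0.073). Foxd3, a forkhead factor needed by the early epiblast, was at 1.98 and 1.47 against -1.16 and -2.62, and Gbx2, a homeobox gene downstream of LIF, was 3.86-fold higher. Several central members had non-overlapping clones but did not pass, and for Esrrb, Nanog and Klf2 the LcPOU5F3 clones lay further apart than the LcPOU5F1 clones. Esrrb, an orphan nuclear receptor, was at 7.19 and 7.30 against 5.45 and 4.25 (2.40 ± 0.44, adjusted p = 0.052, and 0.015 with all 6 arrays). Nanog, the homeobox factor, was at 4.57 and 4.55 against 3.39 and 2.34 (1.69 ± 0.39, adjusted p = 0.073), and a second Nanog probe gave a difference of only 0.03. Klf2 was at 4.77 and 4.62 against 2.76 and 1.08, and Klf4 at 4.76 and 5.75 against 3.88 and 3.19 (adjusted p = 0.067 and 0.086). Prdm14, which represses methylation and lineage genes, was at 3.31 and 3.89 against 1.15 and -0.63 (3.34 ± 0.66, adjusted p = 0.058). Of these, Esrrb, Klf2 and Prdm14 passed without LcPOU5F3 clone 2 (adjusted p = 0.037, 0.035 and 0.046). In contrast Klf5, Tbx3 and Tfcp2l1 had differences of 0.35, 0.81 and 0.50 that did not pass in either fit.

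Other naive and stem cell genes gave 9 rises and 1 fall among 31 tested, with a median of 1.12, and 6 rises and 1 fall without LcPOU5F3 clone 2. Over all tested genes, 2.24% were called higher and 5.98% lower. Fgf4, the fibroblast growth factor that stem cells secrete, was at 5.71 and 5.74 against 3.25 and 1.71 (9.47-fold, adjusted p = 0.047). Tdgf1 (Cripto), a Nodal co-receptor, was at 4.48 and 4.67 against 2.41 and 1.20, and 2 further probes of it gave differences of 2.44 and 2.95. Tdh, threonine dehydrogenase, on which mouse stem cells depend, was 7.62-fold higher, Upp1, uridine phosphorylase, 4.36-fold and Spp1, osteopontin, 2.74-fold. Rif1, a telomere and replication timing factor, Trim28, a corepressor that silences retroviral elements, and Manba rose by 2.30-fold, 2.14-fold and 2.65-fold. The rises of Spp1 and Rif1 did not pass after centring on the median (adjusted p = 0.22 and 0.44). Tet1, a methylcytosine dioxygenase, was at 4.82 and 5.19 against 3.51 and 2.59 and did not pass (adjusted p = 0.055). Dppa3 (Stella), a maternal factor that protects methylation, went the other way, at -0.46 and 0.00 with LcPOU5F3 and on no LcPOU5F1 array above background, at least 4.47-fold lower there (adjusted p = 0.020).

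The octamer ATGCAAAT was searched on both strands in the 250 bases before each RefSeq start (GRCm38.p6), for the 10348 tested genes with such a window. It stood in 3.02% of 298 windows of genes higher with LcPOU5F1, in 1.72% of 812 windows of genes lower with it, in 1.23% of the windows of tested genes and in 1.60% of all 32851 windows. In counts, these were 9, 14, 162 and 526 windows. Among the naive and stem cell genes, Zfp42 and Spp1 each held a match, and so did Cdx2 among the trophectoderm factors, so the same letters stood before genes called in either direction. The 3 windows are shown because of that contrast, from 250 bases before the start up to the start, with the octamer in capitals (read as ATTTGCAT when it lies on the other strand). The match lay 178 bases before the start of Zfp42, 202 before that of Spp1 and 139 before that of Cdx2. A match describes the letters and does not show binding.
Zfp42, chr8:43307010-43307259, minus strand: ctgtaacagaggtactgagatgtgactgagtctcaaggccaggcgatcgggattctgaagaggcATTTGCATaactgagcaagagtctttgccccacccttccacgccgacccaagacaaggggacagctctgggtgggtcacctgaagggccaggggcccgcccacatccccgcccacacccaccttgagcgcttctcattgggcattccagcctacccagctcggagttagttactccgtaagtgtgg
Spp1, chr5:104435942-104436191, plus strand: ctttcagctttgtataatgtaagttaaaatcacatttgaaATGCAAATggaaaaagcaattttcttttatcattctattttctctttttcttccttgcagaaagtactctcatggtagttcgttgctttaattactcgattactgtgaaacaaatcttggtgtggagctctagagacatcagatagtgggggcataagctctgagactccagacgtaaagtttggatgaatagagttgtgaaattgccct
Cdx2, chr5:147307250-147307499, minus strand: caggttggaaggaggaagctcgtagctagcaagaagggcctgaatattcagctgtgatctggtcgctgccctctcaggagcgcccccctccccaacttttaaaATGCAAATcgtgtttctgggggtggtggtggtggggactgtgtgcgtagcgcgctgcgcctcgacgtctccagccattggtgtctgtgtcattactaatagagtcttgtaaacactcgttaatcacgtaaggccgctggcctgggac

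Transcription factors of the trophectoderm and trophoblast were lower with LcPOU5F1. Of 20 tested, 8 fell and 0 rose, where 5.98% of all genes were called lower, with a median of -1.90. The count was also 8 without LcPOU5F3 clone 2. The genes called there were not all the same ones. Cdx2, the homeobox gene that specifies trophectoderm, was at -2.11 and -4.52 in the LcPOU5F1 clones and 3.29 and 3.62 in the LcPOU5F3 clones, with the mOct4 clones between them at -0.38 and -0.46. Its difference was -6.77 ± 0.85 (adjusted p = 0.031, and 0.067 without LcPOU5F3 clone 2), and only 1 of the 2 LcPOU5F1 arrays measured it above background. Gata3, a zinc finger factor that works beside CDX2, was at -2.05 and -3.03 against 2.88 and 3.57 (-5.76 ± 0.44, adjusted p = 0.018), and its partner Gata2 was 19.9-fold lower. Each was measured on 1 LcPOU5F1 array.

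Tfap2a, an AP-2 factor, was at 0.88 and 1.54 with LcPOU5F3, at least 12.1-fold above the LcPOU5F1 clones. Ascl2, an imprinted factor of placental progenitors, was 26.1-fold lower with LcPOU5F1, and Msx2, a homeobox target of BMP, 9.66-fold, with Ascl2 above background on 1 LcPOU5F1 array. Esx1, an X-linked homeobox gene of the placenta, was at -1.88 and -1.71 against 2.72 and 2.05 (-4.18 ± 0.29, adjusted p = 0.017). Id2, an inhibitor of basic helix-loop-helix factors marking outer cells of the morula, was at 1.00 and -1.72 against 5.02 and 5.08 (adjusted p = 0.048, and 0.11 without LcPOU5F3 clone 2). The LcPOU5F1 clones differed from each other by 2.72 (log2) for Id2. Eomes and Tfap2c, which also act in trophoblast stem cells, did not pass. Eomes was at -0.39 and -0.72 against 0.47 and -0.51, so its clones overlapped, and both groups lay under the mOct4 clones at 1.73 and 2.17. Tfap2c was at 3.97 and 3.82 against 4.59 and 4.25 (-0.52 ± 0.20, adjusted p = 0.17). Elf5, a later factor of trophoblast stem cells, had no probe that passed the filter.

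Genes that carry out trophoblast functions followed with 10 falls and 1 rise among 25, at a median of -1.87. Over all tested genes, 5.98% were called lower and 2.24% higher. Without LcPOU5F3 clone 2 there were 6 falls and 1 rise. Sct, secretin, was at -0.48 and -0.16 against 3.89 and 3.06 (13.9-fold, adjusted p = 0.023), Bmp8b, a BMP ligand, was 12.9-fold lower and Cited1, a transcriptional coregulator of the placenta, 20.2-fold lower. Plac1, a placental membrane protein, was on no LcPOU5F1 array above background and at least 4.55-fold lower. Dab2, an endocytic adaptor, had a log2 difference of -3.04, Plet1, a trophoblast surface marker, was 4.08-fold lower, Peg10, an imprinted retrotransposon-derived gene, 3.40-fold and Fgfr2, the receptor through which FGF4 sustains trophoblast stem cells, 2.33-fold. Dab2 and Plet1 were measured on 1 LcPOU5F1 array. The calls of Dab2 and Fgfr2 were lost without LcPOU5F3 clone 2 (adjusted p = 0.052 and 0.062). The rise was Aqp3, a water and glycerol channel, at 3.01 and 3.66 against 0.56 and 1.41. Lrp2 (megalin) was at 0.16 and 0.82 against 2.88 and 4.58 and did not pass (adjusted p = 0.059).

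**Figure D2:**
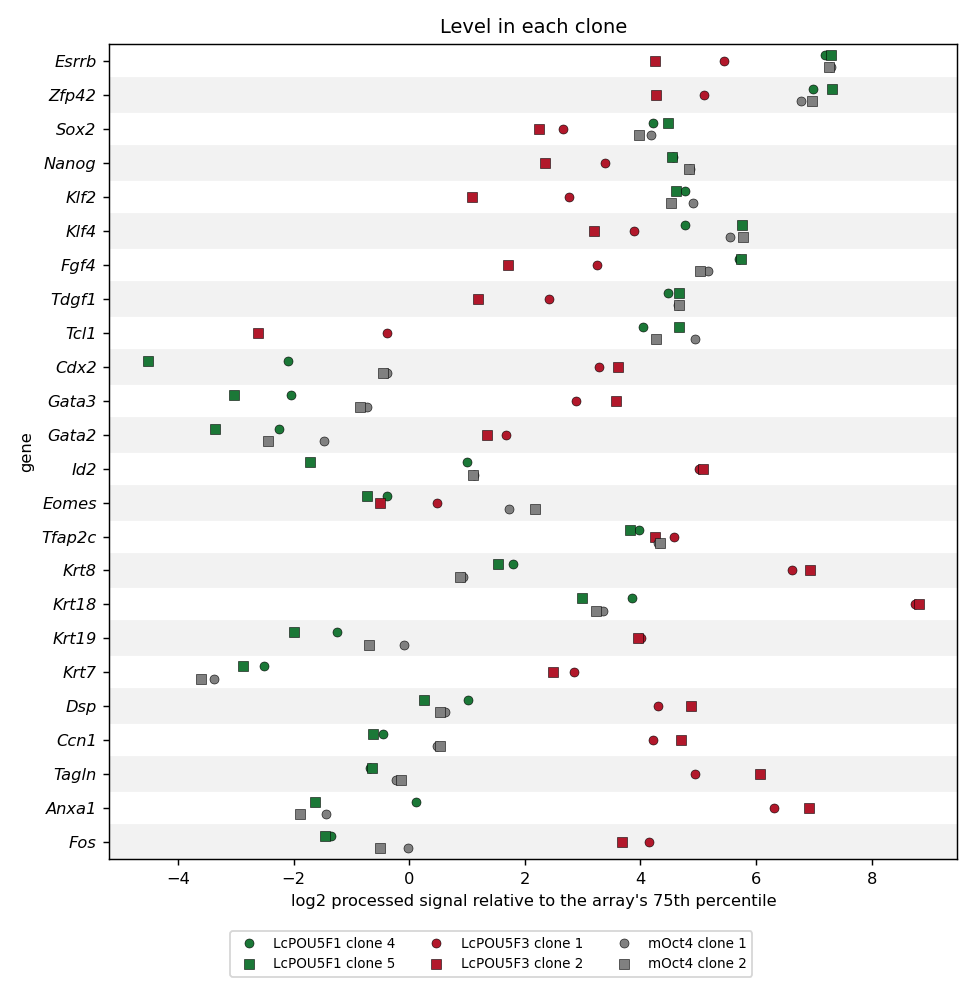
Log2 processed signal relative to the array's 75th percentile (x axis) of 24 genes in each clone: green for LcPOU5F1, red for LcPOU5F3 and grey for the mOct4 reference, with a circle and a square for the clones of a group. The LcPOU5F1 clones lie nearer the mOct4 clones than the LcPOU5F3 clones do for Sox2, Zfp42 and Krt8, LcPOU5F3 clone 2 is lower than clone 1 for Esrrb, Nanog and Klf2, and both LcPOU5F1 clones lie under the mOct4 clones for Cdx2 and Gata3.

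Simple keratins, the intermediate filaments of trophectoderm and other single-layered epithelia, were lower with LcPOU5F1. Of 15 keratin and intermediate filament genes, 7 fell and 0 rose, where 5.98% of all genes were called lower. The median of -0.59 turned to 0.10 among members above background on all 4 arrays. Without LcPOU5F3 clone 2 the falls numbered 6. Krt8 was at 1.79 and 1.53 against 6.62 and 6.93 (-5.12 ± 0.21, adjusted p = 0.011), with the mOct4 clones lower still at 0.93 and 0.88. Its partner Krt18 was at 3.85 and 3.00 against 8.75 and 8.82, and Krt19 at -1.25 and -1.99 against 4.01 and 3.96, 41.1-fold and 48.7-fold lower. Krt7 was on no LcPOU5F1 array above background and at least 32.7-fold lower, and Krt20 at least 3.84-fold lower. Krt42 and the nuclear lamin gene Lmna were 3.36-fold and 5.53-fold lower. Vim, the intermediate filament of mesenchyme, was at 3.93 and 5.23 against 3.63 and 5.34, so that both pairs of clones spanned the same range.

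Desmosomes, the spot junctions that anchor keratin filaments, gave 4 falls and 0 rises among 10 genes, with a median of -1.92 (3 falls without LcPOU5F3 clone 2). Dsp, desmoplakin, was at 1.02 and 0.26 against 4.30 and 4.88 (-3.95 ± 0.36, adjusted p = 0.024), Perp, a desmosomal target of p53, at 4.02 and 3.30 against 6.60 and 7.51, and Evpl, envoplakin, was 5.84-fold lower (adjusted p = 0.035, and 0.068 without LcPOU5F3 clone 2). Tight junction genes fell in 5 of 16 cases with a median of -2.04. For this and the other junction lists, the share of all genes called lower was 5.98%. In 15 of the 16 tight junction genes the clones did not overlap, with LcPOU5F1 lower, where 28.4% of all genes showed that pattern. Cgn, cingulin, was at 1.86 and 0.79 against 4.14 and 4.37, Marveld2 (tricellulin) was 5.71-fold lower, Pard6b, a polarity protein needed for the blastocyst cavity, 3.62-fold, F11r 4.22-fold and Cldn4, a claudin, 9.79-fold. Without LcPOU5F3 clone 2 only Marveld2 of these 5 was called, and Cgn, Pard6b and Cldn4 had adjusted p = 0.076, 0.061 and 0.080. Adherens junction and epithelial identity genes gave 4 falls and 0 rises among 21, at a median of -1.33 (2 falls without LcPOU5F3 clone 2). Among them were Prss8 and Spint1, a membrane protease and an inhibitor of such proteases at 5.29-fold and 3.96-fold lower, and Esrp2, a regulator of epithelial splicing, at 3.43-fold lower. Cdh1, E-cadherin, was at 3.59 and 2.49 against 4.56 and 4.83 and did not pass (-1.65 ± 0.42, adjusted p = 0.084), nor did Cdh2, N-cadherin (-1.91 ± 0.64, adjusted p = 0.13). Limma called 0 of the 5 tested regulators of the switch between epithelium and mesenchyme, with 1 at an unadjusted p under 0.05 (Snai3, 1.12 ± 0.28, adjusted p = 0.083), and their median of 0.36 was -0.22 without LcPOU5F1 clone 5 and -0.08 without LcPOU5F3 clone 1.

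Contractile and cytoskeletal genes of the smooth muscle type had the lowest median of all 39 lists, -3.25. Their calls stand beside 5.98% of all tested genes called lower. Of 17 tested, 11 fell and 0 rose (9 falls without LcPOU5F3 clone 2), and in all 17 both LcPOU5F1 clones lay below both LcPOU5F3 clones, as in 28.4% of all genes. Tagln, the actin-binding protein SM22, was at -0.69 and -0.65 against 4.94 and 6.07 (-6.17 ± 0.42, adjusted p = 0.017). Tpm2 and Tpm4, tropomyosins, were 20.4-fold and 9.54-fold lower, Cald1, caldesmon, 22.0-fold, Acta1, skeletal actin, 44.1-fold and Myl9, a regulatory myosin light chain, 46.3-fold. Acta1 and Myl9 were above background on 1 of the 2 LcPOU5F1 arrays. Csrp1, a LIM protein of actin cables, was at 4.63 and 4.62 against 7.36 and 8.07. Myh9, the non-muscle myosin heavy chain, Tagln2 and Tpm1 fell by less, 3.17-fold, 2.86-fold and 3.00-fold. Other probes of Tpm1 differed by -3.83 to -0.34, so its size depends on the probe. Acta2, smooth muscle actin, was at -1.96 and -1.97 against 0.82 and 3.82 and did not pass (adjusted p = 0.078), but passed without LcPOU5F3 clone 2 (-2.78, adjusted p = 0.023).

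Genes of the YAP and TEAD list were mostly lower with LcPOU5F1. It joins genes that YAP and its TEAD partners are known to switch on with members of the pathway itself. The former include those for the matrix proteins CCN1 and CCN2, the latter Yap1, Wwtr1, Lats2, Amot, Tead1, Tead2 and Tead3. As a background for the count, 5.98% of all tested genes were called lower. Of 17 tested, 12 fell and 0 rose, with a median of -2.45 (-2.08 with unmeasured members at their bounds), and 9 fell without LcPOU5F3 clone 2. Ccn1 was at -0.46 and -0.63 against 4.21 and 4.71 (-5.00 ± 0.24, adjusted p = 0.013) and Ccn2 at 0.74 and -0.32 against 4.60 and 5.47 (-4.83 ± 0.50, adjusted p = 0.025). The angiomotins, which hold YAP at junctions, fell as well: Amot was at 0.41 and 0.03 against 4.16 and 4.98, Amotl1 was 7.20-fold lower and Amotl2 4.22-fold. Lats2, a kinase that inactivates YAP, was 4.94-fold lower. Wwtr1, which encodes the YAP paralog TAZ, was 3.79-fold lower, Tead3 3.07-fold (measured on 1 LcPOU5F1 array), Ptpn14, a phosphatase that restrains YAP, 5.46-fold and Tgfb2, a TGF-beta ligand, 8.48-fold. Ankrd1, a cardiac ankyrin repeat protein, and Axl, a receptor tyrosine kinase, were on no LcPOU5F1 array above background and at least 1.75-fold and 4.91-fold lower. Tead4, the TEAD factor of trophectoderm, differed by -1.58 and was not called.

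The TEAD motif GGAATG, chosen after these values had been seen, stood in the 250-base window of 10 of the 15 list genes that have one, where 13.2% of the 10348 tested genes hold it. The list was built from known targets of TEAD and members of the pathway, so this share describes the list and not the comparison. Yap1, Wwtr1 and Tead3, members of the pathway, are among those 10. Among genes called lower with LcPOU5F1 the share was 16.6% of 607 genes, and among genes called higher 14.6% of 239. The AP-1 motif TGANTCA, chosen at the same time, stood before 8.24% of the genes called lower, 5.86% of those called higher and 5.52% of all tested genes. Among all genes in the table the shares were 14.4% for the TEAD motif and 7.82% for the AP-1 motif. Windows of Ccn1 and Ankrd1 are shown as examples of a gene with 1 match and a gene with 2, with the motif in capitals (CATTCC when on the other strand), 97 bases before the start of Ccn1 and 204 and 117 bases before that of Ankrd1.
Ccn1, chr3:145649986-145650235, minus strand: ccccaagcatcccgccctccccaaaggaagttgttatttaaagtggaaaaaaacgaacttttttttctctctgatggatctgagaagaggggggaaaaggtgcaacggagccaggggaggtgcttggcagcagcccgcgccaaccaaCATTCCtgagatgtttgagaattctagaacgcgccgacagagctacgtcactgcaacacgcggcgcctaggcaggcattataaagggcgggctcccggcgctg
Ankrd1, chr19:36119845-36120094, minus strand: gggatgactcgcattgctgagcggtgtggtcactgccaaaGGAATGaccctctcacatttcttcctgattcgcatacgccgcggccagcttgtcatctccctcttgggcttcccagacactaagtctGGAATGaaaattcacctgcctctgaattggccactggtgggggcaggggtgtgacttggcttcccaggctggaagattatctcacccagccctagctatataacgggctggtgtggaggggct

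Matrix genes were split, and their integrin receptors were mostly lower with LcPOU5F1. As a background for both lists, 2.24% of all tested genes were called higher and 5.98% lower. Of 29 matrix and basement membrane genes, 7 fell and 1 rose, at a median of -0.57 (5 falls and 1 rise without LcPOU5F3 clone 2). Besides Thbs1 and Timp3, Fras1, an epithelial basement membrane protein, was at least 16.2-fold lower. The laminin chains Lamb1 and Lama5 were 3.84-fold and 3.16-fold lower. Nid2, a nidogen that links laminin and collagen, rose 3.02-fold, at 4.58 and 4.54 against 3.11 and 2.82. Among 11 integrins, 6 fell and 1 rose (4 falls and 1 rise without LcPOU5F3 clone 2). Itgb4, the laminin receptor of hemidesmosomes, was at 0.49 and -0.06 against 3.78 and 4.20 (13.7-fold), Itgb5 was 6.02-fold lower, Itgb1 5.06-fold, Itgav 4.57-fold, Itga3 8.62-fold and Itga7 3.20-fold. Itgb7, a beta subunit of leukocytes, rose 5.56-fold.

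Annexins and S100 proteins, calcium-dependent partners at membranes, gave 9 falls and 0 rises among 17, with a median of -2.07 (6 falls without LcPOU5F3 clone 2). The share of all genes called lower was 5.98%. Anxa2 was at 2.69 and 1.54 against 7.58 and 8.17 (54.2-fold, adjusted p = 0.020), Anxa3 was 38.4-fold lower and Anxa5 8.02-fold. Anxa4 and Anxa6 were 3.81-fold and 4.21-fold lower, S100a11 was 5.68-fold lower, and S100a14 was at least 9.20-fold lower. S100a6 was at 3.92 and 1.46 against 7.78 and 8.80, with a gap of 2.47 (log2) between the LcPOU5F1 clones.

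Early response genes, most of them AP-1 subunits that serum and stress induce within minutes, were lower with LcPOU5F1. Their calls stand beside 5.98% of all tested genes called lower. Of 14 tested, 10 fell and 0 rose, at a median of -2.35 (-1.90 with bounds), and 6 fell without LcPOU5F3 clone 2. Fos was at -1.35 and -1.46 against 4.14 and 3.68 (-5.31 ± 0.23, adjusted p = 0.011), Fosb was 14.1-fold lower, and Fosl2 at least 12.4-fold. Jun was at 1.86 and 1.41 against 5.38 and 5.16, and Junb, which also answers to STAT3, was 2.72-fold lower (adjusted p = 0.036, and 0.074 without LcPOU5F3 clone 2). Atf3, a stress-induced repressor, had a log2 difference of -4.26, Ier3 was at least 8.10-fold lower, Klf6 3.24-fold, Maff 3.32-fold and Egr2 at least 1.53-fold.

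Among 25 genes of p53 and its targets, 6 fell and 0 rose, with a median of -0.87 (5 falls without LcPOU5F3 clone 2). The share of all genes called lower was 5.98%. Btg2, an antiproliferative coregulator, was at 0.73 and 0.78 against 3.06 and 3.27 (5.31-fold, adjusted p = 0.018), Plk2 was 12.6-fold lower, and Mdm2, the ligase that degrades p53, was at 4.70 and 4.75 against 6.16 and 6.61 (3.15-fold). The death receptor genes Fas and Tnfrsf10b were at least 8.31-fold and 3.15-fold lower, and Perp completes the 6. Cdkn1a (p21) was at 1.20 and 1.94 against 3.33 and 4.04 and did not pass (adjusted p = 0.051). Trp53 itself was at 1.65 and 1.25 against 0.85 and 0.46, a difference of 0.80 ± 0.25 in the other direction that was not called (adjusted p = 0.12). In the BCL2 family, Bcl2l1 (BCL-XL) fell 3.08-fold and 14 of 15 members were not called. Among G1 regulators only Cdkn2b (p15) of 15 was called, 4.11-fold lower, and 2 fell without LcPOU5F3 clone 2.

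**Figure D3:**
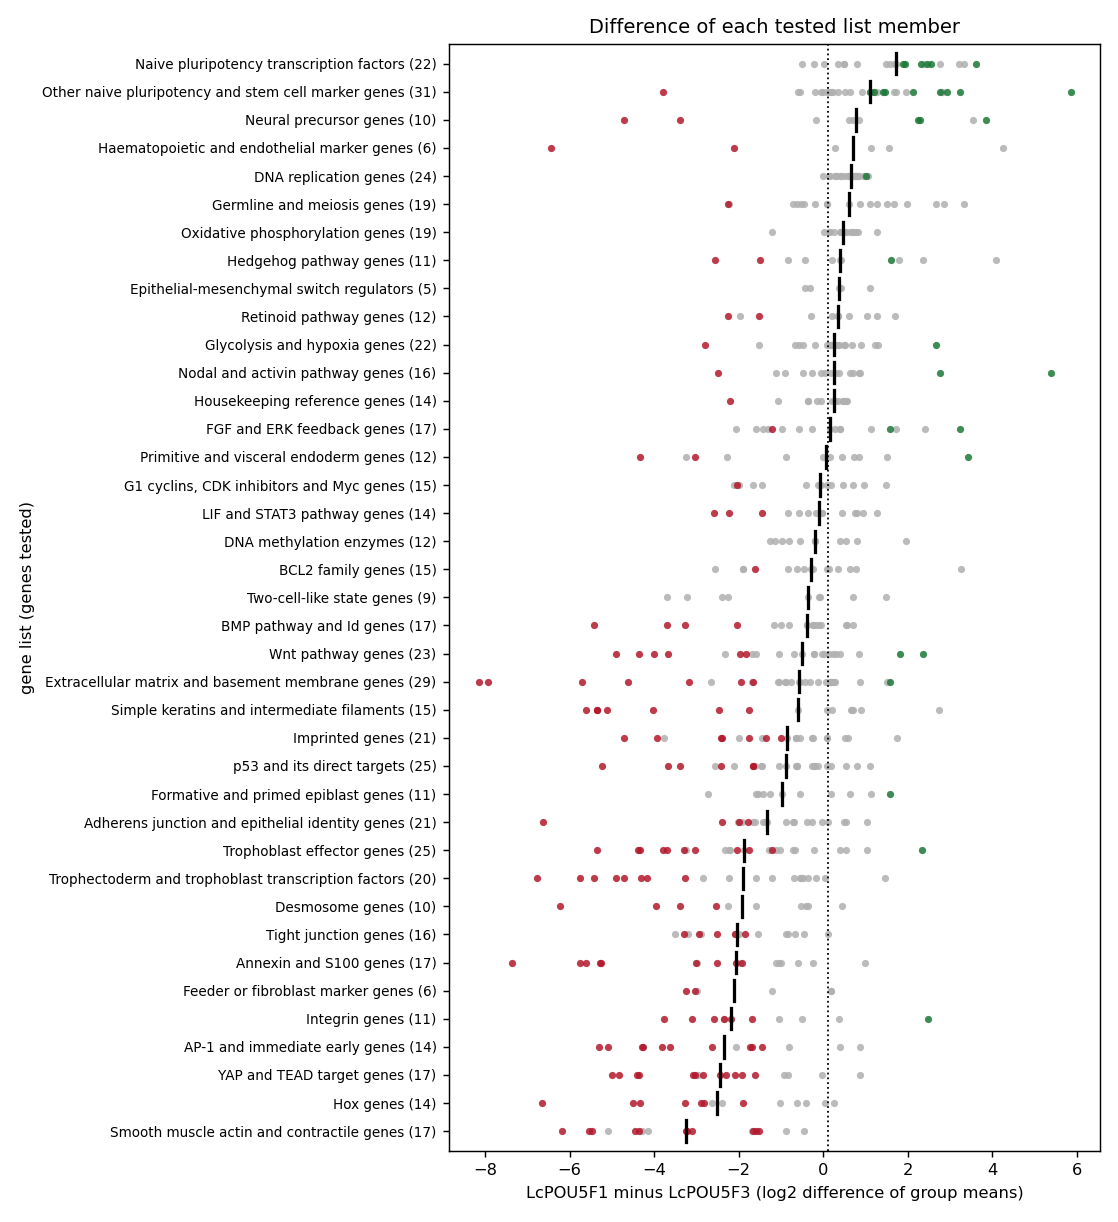
Log2 difference, LcPOU5F1 minus LcPOU5F3, of each tested member of the 39 gene lists, ordered by the list median (black bar); green and red points passed limma's test, grey points did not, and the dotted line marks the median of all genes, 0.12. Naive pluripotency transcription factors have the highest median, 1.71, and the contractile genes the lowest, -3.25.

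Hox genes, the homeobox genes that pattern the body axis and are silenced by Polycomb in stem cells, were near background in the LcPOU5F1 clones. Of 39, 14 passed the filter on dim probes, and of those 7 fell and 0 rose (6 falls without LcPOU5F3 clone 2). A gene that passed only because LcPOU5F3 clones measured it was favoured to come out lower with LcPOU5F1, so the count describes those 14 alone. Hoxa13 passed that way and still overlapped, at -2.54 and -2.65 against -2.10 and -3.19. The lowest signal well above background was -3.69 on the LcPOU5F3 clone 2 array and between -2.55 and -2.17 on the other compared arrays. Hoxc9 was at 1.97 and 2.41 in the LcPOU5F3 clones, Hoxc6 at 0.65 and 1.21 (at least 9.95-fold), Hoxb13 at 0.21 and -0.18 (at least 5.28-fold) and Hoxd8 at -1.48 and -1.75 (at least 1.71-fold). Hoxb4 was at least 2.06-fold lower with LcPOU5F1 and Hoxa3 at least 2.51-fold. Hoxa7, measured on all 4 arrays, was at -1.53 and -1.59 against -0.06 and 0.72. Hoxb13 was also measured in the mOct4 clones, at 0.41 and 0.55, so it was the LcPOU5F1 clones that stood low. The Hoxa genes lie on chromosome 6.

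Among other early lineages, the endoderm and neural lists held calls in both directions, and the formative and primed epiblast list held 1 call. Of 11 formative and primed epiblast genes, 7 had an unadjusted p under 0.05 and 1 was called, while the fit with all 6 arrays called 2 higher and 4 lower, normexp likewise 2 and 4, and centring on the median 0 and 5. The called gene was Etv5, an ETS factor downstream of FGF, which rose 2.97-fold (adjusted p = 0.031, 0.052 without LcPOU5F3 clone 2 and 0.15 after centring on the median). Dnmt3b, a de novo methyltransferase of the epiblast, was at 5.36 and 5.00 against 6.27 and 6.04 (-0.97 ± 0.22, adjusted p = 0.069). Otx2 was at 3.58 and 3.50 against 3.54 and 3.17, where the groups overlapped, and both lay under the mOct4 clones at 4.50 and 4.80. The median of that list, -0.97, was near 0 without the filter on dim probes. Among 12 primitive and visceral endoderm genes, 1 rose and 2 fell, where 2.24% of all genes were called higher and 5.98% lower. Cubn (cubilin) rose at least 3.66-fold, at -0.81 and -1.32 with LcPOU5F1 and above background on no other array of the 6. Cited1 and Dab2 fell. Gata4 was at -1.10 and -1.52 against -0.99 and -1.94. Gata6, Sox17, T and Fgf5 had no probe that passed the filter. In the list of 10 neural precursor genes 5 were called, against 8.22% of all genes. Stmn3 rose at least 4.93-fold, Stmn2 4.75-fold and Pax6 4.93-fold, while Pax3 was at least 7.81-fold lower and Gap43, a growth cone protein, at least 6.52-fold. Of these, Stmn3 was above background on no LcPOU5F3 array and Pax3 and Gap43 on no LcPOU5F1 array, so they entered the test through 1 group alone, and Pax6 was measured on 1 LcPOU5F3 array. The calls of Pax6 and Stmn2 were lost without LcPOU5F3 clone 2 (adjusted p = 0.063 and 0.056).

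Among signalling pathways, the Nodal, FGF, Wnt and hedgehog lists held calls in both directions, and the BMP and LIF lists held falls only. As a background for these counts, 2.24% of all tested genes were called higher and 5.98% lower. In the Nodal and activin list, Inhbb and Tdgf1 rose and Fst, the activin antagonist follistatin, fell 5.61-fold, with 13 of 16 members not called. In the FGF and ERK list, Fgf4 and Etv5 rose and Fgfr2 fell (1 rise and 0 falls among 17 without LcPOU5F3 clone 2). Among 17 BMP genes, Id2, Bmp8b, Msx2 and Id1 fell, Id1 at 1.90 and 1.25 against 3.40 and 3.83 (4.11-fold, adjusted p = 0.039, and 0.081 without LcPOU5F3 clone 2), and 0 rose. Without that clone, 2 BMP genes fell. Among 14 genes of the LIF and STAT3 pathway that keeps these cells naive, Cish, a STAT-induced inhibitor, fell 4.70-fold, Osmr, a receptor of the same family, at least 2.88-fold, and Junb as above (1 fall and 1 rise without LcPOU5F3 clone 2), while Stat3 was at 3.76 and 3.89 against 3.52 and 4.19. Of 23 Wnt pathway genes, 6 fell and 2 rose (3 falls and 0 rises without LcPOU5F3 clone 2). Of the falls, 5 were in genes that no LcPOU5F1 array measured above background. These passed the filter only through the LcPOU5F3 clones and so were favoured to come out lower with LcPOU5F1. The ligands Wnt4, Wnt3 and Wnt7a were at least 13.6-fold, 6.31-fold and 2.49-fold lower, Wnt10a was 3.56-fold lower, and the antagonists Dkk1 and Rnf43 at least 5.29-fold and 6.43-fold. The receptor gene Fzd5 and the secreted antagonist gene Sfrp1 rose 3.51-fold and 5.17-fold, Sfrp1 with 1 LcPOU5F3 array above background. The median of the Wnt list was near 0 among members above background on all 4 arrays. In the hedgehog list, the receptor gene Ptch1 rose 3.05-fold while Gli3 and Cdon, a transcription factor of the pathway and a co-receptor, fell 5.86-fold and 2.81-fold. The call of Ptch1 was lost without LcPOU5F3 clone 2 and after centring on the median (adjusted p = 0.056 and 0.13).

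DNA replication genes had small positive differences, and 1 of 24 was called. Mcm3, a subunit of the replicative helicase, was at 5.91 and 5.91 against 4.98 and 4.83 (1.01 ± 0.17, adjusted p = 0.045, and 0.091 without LcPOU5F3 clone 2). In 23 of the 24 the clones did not overlap, where 38.4% of all genes did not overlap in that direction, and the median was 0.67. Fitted with all 6 arrays, 14 were called higher, but 0 were called after centring on the median, where the list median was 0.30. Oxidative phosphorylation subunits had a median of 0.46, and limma called 0 of 19, with 12 at an unadjusted p under 0.05 and 7 higher and 1 lower with all 6 arrays. Glycolysis and hypoxia genes had 1 rise, Pfkp, the platelet isoform of phosphofructokinase, at 2.73 and 3.08 against 0.54 and -0.08, and 1 fall, Ndrg1. Of 14 housekeeping genes, B2m, the light chain of MHC class I, fell 4.60-fold and 13 were not called.

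Imprinted genes, expressed from 1 parental allele, gave 7 falls and 0 rises among 21, at a median of -0.85 (6 falls without LcPOU5F3 clone 2). The share of all genes called lower was 5.98%. Dlk1, an inhibitor of differentiation from the Dlk1-Dio3 domain, was at -1.16 and -0.67 against 2.59 and 3.43 (15.2-fold, adjusted p = 0.024). Nnat and Peg3 were 5.32-fold and 5.21-fold lower, Sgce 2.57-fold and Gnas 2.00-fold, with Ascl2 and Peg10 described above. A second Gnas probe gave a difference of -0.07. Germline genes gave 1 fall among 19, Tex101, a germ cell surface protein. Limma called 0 of 12 DNA methylation enzymes, with 7 at an unadjusted p under 0.05, and 0 of 9 genes of the two-cell-like state, with 1. Of 12 retinoid pathway genes, Cyp26a1, which degrades retinoic acid, and Rdh10, which makes its precursor, were at least 2.29-fold and 4.37-fold lower. Neither was above background on any LcPOU5F1 array, so both entered the test only through the LcPOU5F3 clones, and 0 retinoid genes were called without LcPOU5F3 clone 2 (adjusted p = 0.052 and 0.055). In lists of other cell types, 6 of 15 fibroblast genes were tested and Thy1 and Dcn (decorin) fell, 9.43-fold and at least 4.60-fold. Among 6 tested of 13 blood and endothelial genes, Flt1 and Runx1 fell, Runx1 at least 3.52-fold. Dcn, Flt1 and Runx1 entered the test only through the LcPOU5F3 clones. The blood and endothelial list had a median of 0.71, with 3 members non-overlapping and higher with LcPOU5F1 and 2 lower. Its Cd34, on no LcPOU5F3 array above background, was at 0.21 and -1.80 against -4.09 and -5.99 and did not pass (limma adjusted p = 0.071).

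Clones of a pair differed more with LcPOU5F3 than with LcPOU5F1. Among genes measured on both arrays of a pair, 1270 of 12464 (10.2%) were over 1 apart (log2) between the LcPOU5F3 clones and 364 of 12083 (3.01%) between the LcPOU5F1 clones. The median SD over all tested genes was 0.21 with LcPOU5F3 and 0.14 with LcPOU5F1. Some lists differed between the LcPOU5F3 clones and others did not. All 8 embryonic stem cell markers were lower in clone 2 than in clone 1, with a median gap of -0.92, as were 16 of 22 naive transcription factors (-0.62) and 17 of 18 germline genes (-0.69). All 17 contractile genes were higher in clone 2 (0.84), and so were all 10 desmosome genes (0.48), while trophectoderm transcription factors were split (9 of 20 lower, median 0.09). The medians of early response genes (-0.07), tight junction genes (-0.05), trophoblast effectors (0.11) and keratins (0.04) lay near 0 between these clones. Between the LcPOU5F1 clones, 9 of 9 desmosome genes and 13 of 14 tight junction genes were lower in clone 5, with medians of -0.72 for both. These are 1 array against 1 array and have no replicate check.

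**Figure D4:**
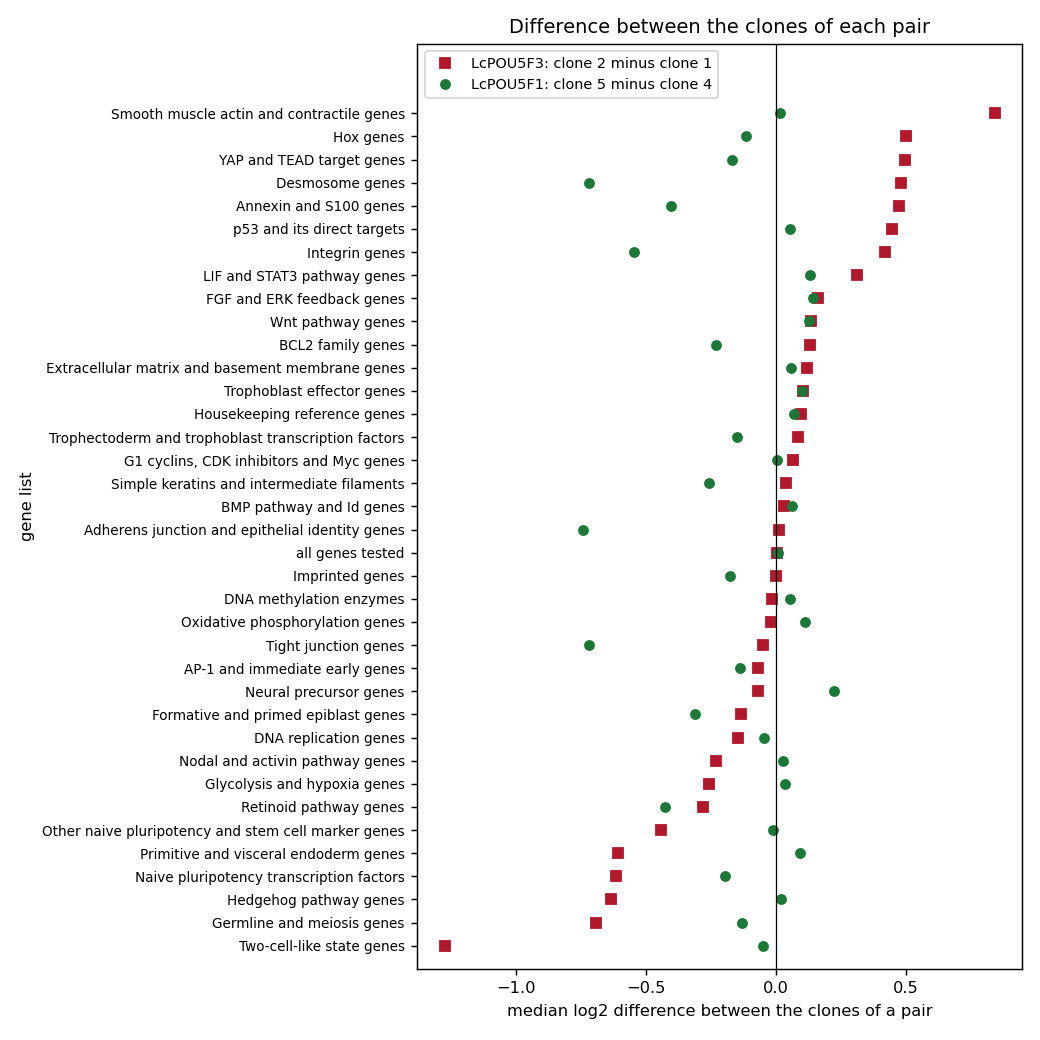
Median log2 difference between the clones of a pair for gene lists with at least 8 members measured on both LcPOU5F3 arrays: red squares for LcPOU5F3 clone 2 minus clone 1, green circles for LcPOU5F1 clone 5 minus clone 4. The LcPOU5F3 pair runs from -1.27 for genes of the two-cell-like state to 0.84 for contractile genes, and all genes tested lie at 0.

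The genes that separated the LcPOU5F3 clones most included the Zscan4 cluster, which marks rare cells with a two-cell-like state. Zscan4c was at 1.70 in clone 1 and -1.90 in clone 2, and Zscan4f at 2.14 and -1.66, beside 2.89 and 2.66 and 3.42 and 3.26 in the mOct4 clones. Zscan4a was at 1.47 and -1.20. These genes are near-identical copies, so their probes may share signal. Igf2, an imprinted growth factor, was at 3.10 in clone 1 and -0.23 in clone 2, while Acta2, Ccnd2, cyclin D2, and Akr1b8, an aldo-keto reductase, were higher in clone 2 by 3.01, 3.30 and 3.67 (log2). Ccnd2 and Akr1b8 lie on chromosome 6. Auh, Gpat2, Oas1a and Rpl10l were lower in clone 2, Auh at 1.08 and -3.01. Igf2 passed without clone 2 (-5.42, adjusted p = 0.026) and not with it (adjusted p = 0.12). In the LcPOU5F1 pair the largest gaps were in Gngt2, Fabp3, Mtus2, Tmcc3 and Limch1. Fabp3, a fatty acid binding protein, was at 3.10 in clone 4 and 6.10 in clone 5.

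**Figure D5:**
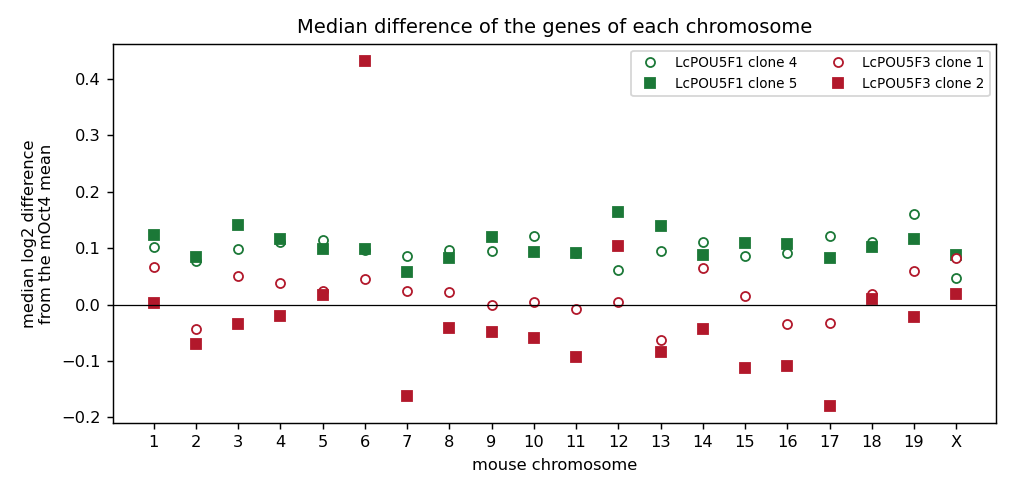
Median log2 difference from the mOct4 mean over the genes of each chromosome that were above background on all 4 compared arrays. It is shown for the 4 compared clones (open circles for LcPOU5F1 clone 4 and LcPOU5F3 clone 1, filled squares for LcPOU5F1 clone 5 and LcPOU5F3 clone 2). LcPOU5F3 clone 2 lies at 0.43 on chromosome 6, apart from every other point.

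On chromosome 6, 618 genes were tested and 50 were called, 8 higher and 42 lower with LcPOU5F1. Over all tested genes, 8.22% were called, 2.24% higher and 5.98% lower. Leaving that chromosome out of the fit gave 317 higher and 778 lower calls among 12308 genes, and all 1012 calls on other chromosomes were kept. Dppa3, Gata2, Cald1, Anxa4, Peg10, Sgce, Wnt7a, Hoxa3 and Hoxa7 are named members on chromosome 6 that were called. Gata2 was lower in clone 2 than in clone 1 by 0.33, and Wnt7a by 0.03, while Cald1 was higher there by 1.56.

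The mOct4 clones, which take no part in the test, lay closer to LcPOU5F1 for most called genes. Among 738 called genes measured on all 6 arrays, the mOct4 mean was nearer the LcPOU5F1 mean in 684 (92.7%), against 67.6% of the 11610 tested genes so measured. It was so for 198 of 216 genes higher with LcPOU5F1 and 486 of 522 lower. The 54 exceptions, named after their values were seen, included placental genes and signalling genes. Esx1 was at 0.32 and 0.59 in the mOct4 clones, closer to LcPOU5F3 than to LcPOU5F1, and Sct at 1.92 and 1.98. Prtg, protogenin, was at 1.70 and 1.98 beside -0.26 and 0.61 with LcPOU5F1 and 3.52 and 3.35 with LcPOU5F3. Thy1, a surface glycoprotein of fibroblasts and neurons, was at 0.85 and 0.42 beside -1.17 and -1.36 and 2.09 and 1.85. Socs2, a STAT-induced inhibitor, was higher with LcPOU5F1, at 3.61 and 3.09, than in the mOct4 clones, at 2.19 and 2.00, or with LcPOU5F3, at 0.97 and 0.84.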

How the data were processed

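RNA from 6 ZHBTc4 lines was hybridised to 1-colour arrays of 55681 non-control probes. Per the file headers, the authors extracted each spot's intensity with Agilent Feature Extraction 11.0.1.1, protocol GE1_1100_Jul11, on a design of build mm9, as a linear value with background removed and no scaling between arrays. Processed intensity was log2 transformed, outlier spots were dropped, spots of a probe averaged and the 75th percentile subtracted. Probes well above background on both arrays of LcPOU5F1 or of LcPOU5F3 were kept. Symbols came from accessions in a RefSeq table of GRCm38.p6, which named 27656 probes (49.7%), and the brightest probe of a gene was used. Promoter sequences are RefSeq's for the same assembly. A linear model of the 4 arrays was fitted in R 4.3.3 by lmFit and eBayes of limma 3.58.1 and p-values adjusted by Benjamini-Hochberg over all 12926 genes. Replicates are 2 colonies per group, so a p-value reflects the spread between colonies, and precision is limited by the small number of arrays. The labels do not say whether the colonies of a group came from separate deliveries of the plasmid. A p-value may therefore not cover the spread between such deliveries.

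The members, the 39 lists and the rules were chosen with earlier results of these data known. Named were the 10 highest and 10 lowest called genes with non-overlapping clones and a proper symbol, from each list up to 4 members of smallest p, a fixed set of key genes, and, without a test, the 10 and 5 genes furthest apart between the LcPOU5F3 and the LcPOU5F1 clones. Further called list members are named after their values were seen. "At least" ratios set the brighter mean against the lowest well-above-background signal of each dim array. Normexp used the median spot intensity, offset 50, in place of the planned mean intensity. On simulated arrays of 12926 genes, the fit recovered 34% of changes of 2 on the log2 scale, 62% of 3, 76% of 4 and 0% of 1, with 1 false call. Some genes that the rule picked are not reported here.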

Additional observations from a re-analysis of the deposited data

How the results depend on the processing

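Against 289 higher and 773 lower calls, the fit with all 6 arrays gave 1548 and 1747, an intensity trend in the prior 1214 and 1394, an adjusted p under 0.10 1287 and 1579, normexp 599 higher, quantile normalization 485 higher, and centring on the median 1393 lower. With no filter on dim probes limma called 0 and 0 of 20969 genes, with 3341 at an unadjusted p under 0.05. Leaving out 1 clone gave 0 to 1396 higher and 0 to 1489 lower calls; 3 arrays leave 1 clone in a group, which is assumed to vary like the other group. The other settings kept both counts within 1.5 times: the mean of all probes, the deposited series matrix, a 2-fold minimum, probes above background on all 4 arrays, and chromosome 6 left out (chosen after seeing the data). Of 192 named genes 117 were called, and 0 of their 1590 values under the alternatives had the opposite sign. With all 6 arrays 117 were called, without LcPOU5F3 clone 2 87, after centring 112, and with no filter or without either LcPOU5F1 clone 0. After centring, moderation left 25850 degrees of freedom, so that nearly 1 common spread was used for all genes. The cause of these shifts was not tested. Probes near background limit the falls, since 198 of the 773 were on no LcPOU5F1 array above background. No paired analysis was possible because the LcPOU5F1 clones are numbered 4 and 5 and the LcPOU5F3 clones 1 and 2, so the groups share no number.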
